A study of Mus musculus with 9 samples.

Results

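The 10 genes described here encode the enzymes that build purine and pyrimidine nucleotides from small precursors: Cad, Dhodh and Umps for pyrimidines, Ppat, Gart, Pfas, Paics, Adsl and Atic for purines, and Impdh2 for the step from IMP towards GMP. The rule that names them uses their place in the pathway and no measured value, though the pathway was picked with earlier results of these data known. They are 10 of 24044 named genes in the table, each stands on 1 row, and all 10 were among the 12711 genes tested.

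The RNA came from mouse embryonic stem (ES) cell lines, 3 in all: E14, v6.5 and the Oct4 reporter line Oct4 GiP. Paused cells were kept with 200 nM of INK128, which inhibits the mTor kinase, and Serum cells were grown in Serum. The 2i cells were grown in 2i, a medium named for kinase inhibitors whose composition the labels do not give. The culture time was 2 weeks in all 3 conditions. All cells were at passages 20 to 23 and on gelatin, and the medium in which Paused cells received INK128 is not given in the labels. Each line gave 1 library per condition, so there were 3 libraries per condition and 9 in all.

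Purines are assembled step by step on a ribose phosphate, PRPP, until the ring of IMP is closed, and IMP is then turned into AMP or GMP. In pyrimidine synthesis the ring is made first and joined to PRPP afterwards, to give UMP. The pathway uses glutamine, aspartate, glycine and folate-bound carbon, and proliferating cells such as ES cells rely on it for RNA and DNA. In mammalian cells mTor signalling is known to act on it through S6 kinase and CAD and through ATF4, and MYC proteins are known to bind its genes.

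Levels are FPKM, which corrects fragment counts for transcript length and library size, so they can be compared between genes per length, and the number of reads behind them is unknown. Each member is given in the order E14, v6.5 and Oct4 GiP within a condition, with means ± SD (n = 3). Differences are on the log2(FPKM + 1) scale, ± the standard error of a limma fit with the cell line as a block, and a gene is called at an adjusted p under 0.05. The p-values set each difference against the spread left once line and condition means are removed, over all 9 libraries. That spread is pooled over the 3 conditions and moderated across genes. It holds library noise as well as differences between lines in how they respond to a condition. In bulk RNA, fewer cells of a type and less RNA per cell cannot be told apart. The 8 ES cell markers were present in every library and summed to 6184 to 6642 FPKM in Paused, 3919 to 4664 FPKM in 2i and 4322 to 5678 FPKM in Serum cells. The 7 fibroblast feeder markers summed to 0.638 to 1.83 FPKM in Paused, 0.921 to 1.42 FPKM in 2i and 4.26 to 11.3 FPKM in Serum cells, with Dcn at 0 in all 2i and Lum at 0 in all Serum libraries. The 8 trophoblast markers, which include the keratins Krt8 and Krt18, summed to 26.4 to 48.8 FPKM in Paused, 43.1 to 72.0 FPKM in 2i and 63.9 to 319 FPKM in Serum cells. Against Serum, the feeder sums were lower in Paused and 2i cells, and the trophoblast sums were lower in Paused and overlapped in 2i cells. The ES cell sums were higher in Paused and overlapped in 2i cells. Single ES cell markers did not all follow the sum. In Paused, 2i and Serum cells in turn, Dppa5a was at 2448 ± 292, 1503 ± 75 and 1726 ± 299 FPKM. Nanog was at 144 ± 65, 361 ± 28 and 156 ± 101 FPKM, and Utf1 at 505 ± 109, 127 ± 45 and 590 ± 113 FPKM. The part of all these marker sets in the lower member levels reported below was not tested. The 7 primitive endoderm markers stayed between 2.42 and 5.01 FPKM in every library.

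All 10 genes were well expressed in every library, at 19.5 FPKM or more. Impdh2 had the highest level of the 10 in 9 of 9 libraries, Ppat was 9th in all 9 and Dhodh was 10th in all 9. Paics was 2nd in 7 libraries and Gart in the other 2. The ranking of Pfas, Atic, Cad, Adsl and Umps changed from library to library, between 3rd and 8th. Summed over the 10 genes, the level was 1450.0, 1337 and 1409 FPKM in Paused, 1196, 1306 and 1177 FPKM in 2i, and 1602, 1613 and 1626 FPKM in Serum cells. The 3 ranges of these sums in FPKM did not overlap, with 2i lowest and Serum highest. This order depends on the scale. In the rescaled second columns described below, each of the genes had its lowest mean in Paused and its highest in Serum cells.

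**Figure D1:**
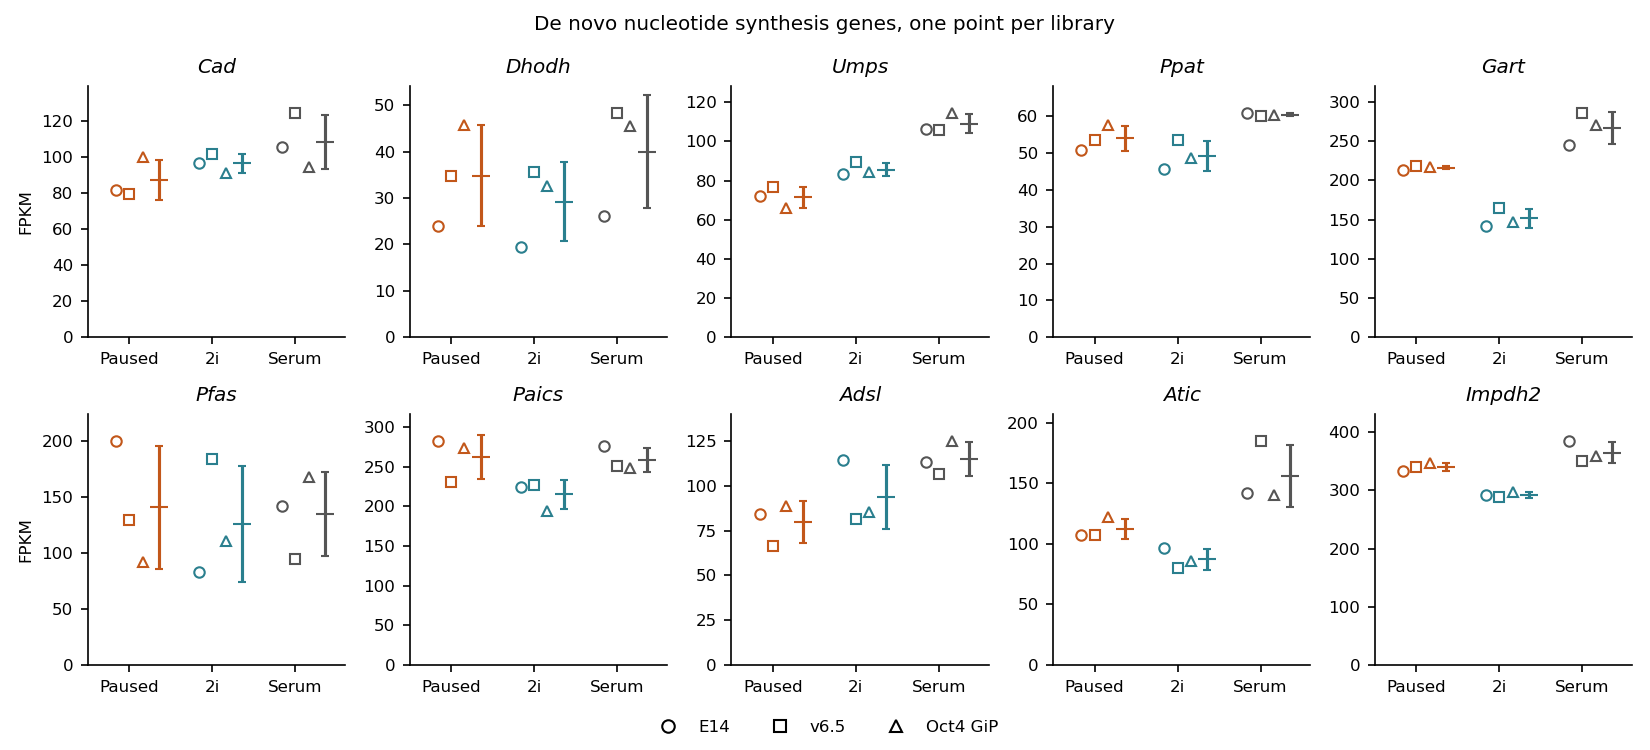
FPKM of each of the 10 genes (vertical axes, linear and starting at 0) in Paused, 2i and Serum cells, one symbol per library with its shape giving the line, and a bar at the mean ± SD of 3 libraries. Gart and Atic stand lowest in 2i, Umps lowest in Paused, and Pfas spreads from 83.2 to 200.1 FPKM without following the conditions.

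The stretch before the start of each gene was searched for letters that known regulators bind, since MYC proteins bind the E-box CACGTG and the factor NF-Y binds the CCAAT box. RefSeq promoter sequence (GRCm38.p6, 250 bases before the annotated start and 50 after it) was matched for 8 of the 10 genes, all but Dhodh and Pfas. The E-box, which reads the same on both strands, was in the windows of 3 of the 8, Atic, Paics and Impdh2, and in 7.15% of 32851 promoter windows. CCAAT, or ATTGG on the other strand, was in 4 of the 8 windows, those of Atic, Paics, Impdh2 and Gart, and in 37.4% of all windows. The sequences of the 2 purine genes with the largest difference in 2i cells, Gart and Atic, are shown over the 250 bases before the start, with the E-box and CCAAT in capitals. Atic lies at chr1:71556906-71557155 on the + strand and Gart at chr16:91646973-91647222 on the - strand.
Atic: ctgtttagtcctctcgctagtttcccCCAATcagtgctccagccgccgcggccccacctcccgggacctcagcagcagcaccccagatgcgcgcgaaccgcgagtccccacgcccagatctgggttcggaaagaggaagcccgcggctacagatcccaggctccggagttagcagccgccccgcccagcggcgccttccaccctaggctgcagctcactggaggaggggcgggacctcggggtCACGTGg
Gart: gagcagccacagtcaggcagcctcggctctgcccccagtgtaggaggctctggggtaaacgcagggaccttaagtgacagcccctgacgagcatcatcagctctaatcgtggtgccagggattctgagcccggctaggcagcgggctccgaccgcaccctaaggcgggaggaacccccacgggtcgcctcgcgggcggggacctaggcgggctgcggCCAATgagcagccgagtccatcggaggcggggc
The E-box of Atic covers bases -7 to -2 from the start, next to the first transcribed base. Those of Paics, bases -203 to -198, and Impdh2, bases -110 to -105, lie further upstream, and 30 bases around each, both on the + strand, are shown with the E-box in capitals. The Paics stretch is chr5:76951087-76951116 and the Impdh2 stretch is chr9:108560314-108560343.
Paics: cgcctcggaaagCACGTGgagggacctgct
Impdh2: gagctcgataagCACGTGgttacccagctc
A match describes the letters in the window and is not evidence that a factor binds there in these cells. The window of Gart held no CACGTG, and the part of either motif in the levels of these genes was not tested.

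Cad (chr5:31054620-31078479, + strand, GRCm38.p6, as for every position here) encodes the enzyme with 3 activities that opens pyrimidine synthesis. Its level was 82.1, 79.7 and 100.1 FPKM in Paused, 97.0, 101.8 and 91.2 FPKM in 2i, and 106.0, 124.7 and 94.8 FPKM in Serum cells. The 3 ranges overlapped, and the Oct4 GiP line was the exception in Paused cells, where its Cad level was the highest of the 3 lines. Against Serum, Cad differed by -0.31 ± 0.14 in Paused cells (adjusted p = 0.156) and by -0.16 ± 0.14 in 2i cells (adjusted p = 0.385), and neither was called.

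Dhodh (chr8:109593244-109608699, - strand) encodes the mitochondrial enzyme that oxidises dihydroorotate to orotate. Its level was 24.0, 34.8 and 45.8 FPKM in Paused, 19.5, 35.5 and 32.7 FPKM in 2i, and 26.1, 48.4 and 45.6 FPKM in Serum cells. The level went by line: the E14 libraries, at 19.5 to 26.1 FPKM, all lay below the 32.7 to 48.4 FPKM of the other 6, a separation that 2.13% of all tested genes showed in that direction. Within lines the drop in 2i cells was even, with differences of -0.41, -0.43 and -0.47 from Serum, and Dhodh was called lower in 2i (-0.44 ± 0.12, adjusted p = 0.0256). Without the line as a block it was not called (adjusted p = 0.332), and the call held in 4 of 9 fits that left out 1 library. It was lost without 2i E14, 2i Oct4 GiP or any 1 of the 3 Serum libraries. In Paused cells Dhodh differed from Serum by -0.19 ± 0.12 and was not called (adjusted p = 0.278).

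Umps (chr16:33954782-33967038, - strand) encodes UMP synthase, which joins orotate to PRPP and completes UMP. Its level was 71.9, 76.6 and 65.8 FPKM in Paused, 83.1, 89.3 and 84.2 FPKM in 2i, and 106.3, 106.0 and 114.6 FPKM in Serum cells. The ranges of the 3 conditions did not overlap, and Umps was, with Gart, 1 of the 2 genes called in all 3 comparisons. It fell in Paused against Serum (-0.60 ± 0.08, adjusted p = 0.0137), in 2i against Serum (-0.35 ± 0.08, adjusted p = 0.0196) and in Paused against 2i (-0.26 ± 0.08, adjusted p = 0.0462). All 3 lines moved the same way in each comparison. The Paused call against Serum was lost without any 1 of the 3 Paused libraries or without Serum Oct4 GiP, with adjusted p of 0.0589 to 0.0743. The 2i call was lost without Serum E14, Serum Oct4 GiP, 2i v6.5 or 2i Oct4 GiP, and the call between Paused and 2i held only without Serum v6.5 among the 9 libraries. An antisense gene, Gm15829, overlaps 800 bases of Umps, and since strand-aware counting is not stated for these values, reads of the pair may not be separated.

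Ppat (chr5:76913249-76951578, - strand) encodes the amidotransferase that commits PRPP to purine synthesis. Its level was 50.9, 53.6 and 57.7 FPKM in Paused, 45.6, 53.6 and 48.6 FPKM in 2i, and 60.9, 60.1 and 60.4 FPKM in Serum cells. The Serum libraries were nearly equal and above all 6 others. Ppat fell in 2i cells (-0.29 ± 0.08, adjusted p = 0.0322) and was not called in Paused cells (-0.16 ± 0.08, adjusted p = 0.216). The 2i call held in 2 of 9 fits without 1 library, those without 2i v6.5 and without Paused Oct4 GiP, and was lost without each of the other 7.

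Paics (chr5:76951302-76967509, + strand) encodes a bifunctional enzyme of the middle of the purine pathway, and its gene lies head to head with Ppat. Their GENCODE annotations overlap by 272 bases, and the RefSeq positions printed here differ slightly from these. Its level was 282.9, 231.3 and 273.3 FPKM in Paused, 223.9, 227.1 and 194.4 FPKM in 2i, and 275.7, 250.8 and 248.9 FPKM in Serum cells. All 2i libraries lay below all Serum and all Paused libraries, with Paused v6.5 a few FPKM above 2i v6.5. Paics differed by -0.27 ± 0.10 in 2i against Serum (adjusted p = 0.0708), by 0.28 ± 0.10 in Paused against 2i (adjusted p = 0.0548) and by 0.02 ± 0.10 in Paused against Serum (adjusted p = 0.909), none of them called. The 95% interval of the last difference ran from -0.22 to 0.25. Although they share a start region, Paics stood 4.87 ± 0.63 times above Ppat in Paused, 4.38 ± 0.47 times in 2i and 4.27 ± 0.22 times in Serum cells. A further antisense gene, 2310040G07Rik, overlaps 19391 bases of Ppat.

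Gart (chr16:91621395-91646972, - strand) encodes the enzyme with 3 activities that adds glycine and the first formyl group to the growing purine. Its level was 213.7, 217.9 and 216.8 FPKM in Paused, 141.5, 165.3 and 147.2 FPKM in 2i, and 244.7, 286.0 and 270.1 FPKM in Serum cells. The conditions were fully separated, 2i lowest and Serum highest, and the Paused libraries lay within a few FPKM of each other. Gart fell in 2i against Serum (-0.81 ± 0.07, adjusted p = 0.00126), a ratio of means of 0.567, and the call held under all 23 alternatives run. It was higher in Paused than in 2i cells (0.51 ± 0.07, adjusted p = 0.00289), and the call held in all 9 fits without 1 library and was lost without all 3 Oct4 GiP libraries (adjusted p = 0.0547). In Paused against Serum it fell by a smaller amount (-0.30 ± 0.07, adjusted p = 0.0390), and that call was lost without the block (adjusted p = 0.0612), with equal sums per library (adjusted p = 0.104), with quantile normalization (adjusted p = 0.525) and in 8 of 9 fits without 1 library, all but the one without 2i E14. An antisense gene, Gm15964, overlaps 2676 bases of Gart.

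Pfas (chr11:68985701-69008460, - strand) encodes the amidotransferase that acts after Gart's formylation step. Its level was 200.1, 129.7 and 91.8 FPKM in Paused, 83.2, 183.6 and 110.6 FPKM in 2i, and 142.0, 94.4 and 167.5 FPKM in Serum cells. A different line was highest in each condition: E14 in Paused, v6.5 in 2i and Oct4 GiP in Serum. Once line and condition means were removed, the residual SD of Pfas was 0.632 on the log2 scale, above that of 96.2% of tested genes, while the other 9 members ran from 0.0502 for Impdh2 to 0.200 for Atic. Pfas differed by 0.03 ± 0.41 in Paused against Serum (adjusted p = 0.968) and by -0.14 ± 0.41 in 2i against Serum (adjusted p = 0.812). The 95% intervals were -0.96 to 1.02 and -1.13 to 0.86, the widest of the 10 genes. Small RNA genes overlap Pfas, Mir3062 over 105 bases on the same strand and Gm25819 over 84 bases on the other.

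Adsl (chr15:80948490-80970947, + strand) encodes the lyase that acts both on the way to IMP and on the way from IMP to AMP. Its level was 84.2, 66.3 and 88.7 FPKM in Paused, 114.3, 81.7 and 85.2 FPKM in 2i, and 113.1, 106.7 and 125.3 FPKM in Serum cells. All Paused libraries lay below all Serum libraries, and in 2i the E14 library stood with Serum and the others with Paused. Adsl fell in Paused against Serum (-0.53 ± 0.12, adjusted p = 0.0352) and was not called in 2i (-0.31 ± 0.12, adjusted p = 0.0939). The Paused call was lost without the block (adjusted p = 0.0617) and without any 1 of the 3 Paused or the 3 Serum libraries, with adjusted p up to 0.145. Gm6612, a processed pseudogene, lies within Adsl on the same strand over 395 bases.

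Atic (chr1:71557156-71579403, + strand) encodes the enzyme that adds the last formyl group and closes the ring of IMP. Its level was 107.7, 107.7 and 122.0 FPKM in Paused, 96.9, 79.9 and 85.5 FPKM in 2i, and 141.8, 185.4 and 140.5 FPKM in Serum cells. The conditions did not overlap, in the same order as for Gart. Atic fell in 2i against Serum (-0.82 ± 0.14, adjusted p = 0.00656), a ratio of means of 0.561, and the call held in all 9 fits without 1 library. It was lost when all 3 Oct4 GiP libraries were left out (adjusted p = 0.0596). In Paused cells the difference from Serum was -0.46 ± 0.14 and from 2i 0.36 ± 0.14, and neither was called (adjusted p = 0.0702 and 0.0823).

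Impdh2 (chr9:108560436-108565577, + strand) encodes IMP dehydrogenase 2, which takes IMP towards GMP. Its level was 332.6, 339.8 and 346.6 FPKM in Paused, 291.3, 288.5 and 297.9 FPKM in 2i, and 385.6, 350.9 and 358.8 FPKM in Serum cells. The 3 ranges did not overlap, though Paused Oct4 GiP and Serum v6.5 lay close together. Impdh2 fell in 2i against Serum (-0.32 ± 0.07, adjusted p = 0.0138), and the call was lost without Serum E14 (adjusted p = 0.0605) and held without each of the other 8 libraries. It was higher in Paused than in 2i cells (0.21 ± 0.07, adjusted p = 0.0454), and this call was lost without any 1 of the 9 libraries. Against Serum it differed by -0.10 ± 0.07 in Paused cells (adjusted p = 0.330). Its libraries varied little, with a residual SD above that of only 2.45% of tested genes. Ndufaf3 overlaps 48 bases of Impdh2 on the other strand, and a pseudogene copy, Impdh2-ps, is annotated elsewhere, so reads may be shared. The related Impdh1, at 21.3 ± 4.4 FPKM in Paused, 24.7 ± 9.2 FPKM in 2i and 37.9 ± 4.4 FPKM in Serum cells, was expressed far below it.

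In 2i against Serum, 6 of the 10 genes fell, Gart, Atic, Impdh2, Umps, Dhodh and Ppat, where 18.9% of all tested genes were called lower. All 10 values were below 0, with a median of -0.31 beside 0.02 over all tested genes. The limma fit called 0 of the 10 higher, where 21.7% of all tested genes were, and 0 were higher at an unadjusted p under 0.05. The ranges of 6 genes lay below those of Serum without overlap, where 22.4% of all tested genes did so. The 6 calls were spread over pyrimidine genes (2 of 3), purine genes up to IMP (3 of 6) and Impdh2. The count was 2 without Serum E14, 3 without Serum Oct4 GiP and 3 without 2i Oct4 GiP, and 5 without the block. Scaling to equal sums left 4 calls, without Umps and Ppat, and quantile normalization left 4, without Umps and Impdh2.

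**Figure D2:**
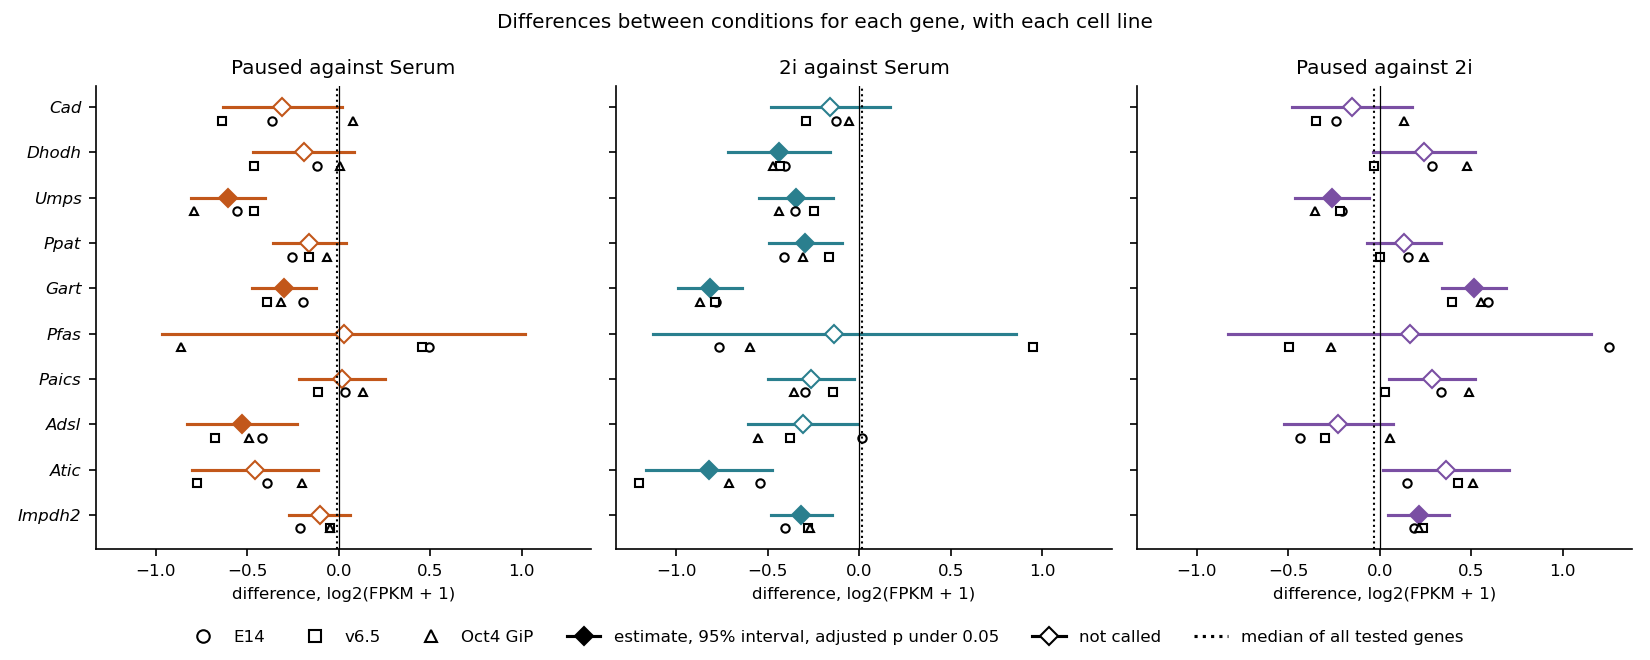
Differences on the log2(FPKM + 1) scale (horizontal axes) for each of the 10 genes in the 3 comparisons, as limma estimates with 95% intervals (diamonds, filled where called) and as the difference within each line (small symbols), with the median of all tested genes as a dotted line. In 2i against Serum all 10 estimates lie left of 0, led by Atic at -0.82 and Gart at -0.81, while the 3 lines of Pfas lie on both sides of 0.

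In Paused against Serum, 3 of the 10 genes fell, Umps, Adsl and Gart, where 10.5% of all tested genes were called lower. The median of the 10 was -0.25 beside -0.01 over all tested genes, and 8 of the 10 values were below 0. By limma 0 of the 10 were called higher, where 7.64% of all tested genes were. At an unadjusted p under 0.05, 0 were higher and 4 lower. With quantile normalization, 1 was higher and 3 were lower at that unadjusted p, and with equal sums 0 and 4. The call of Gart was lost under both scalings. The ranges of 6 genes, Umps, Ppat, Gart, Adsl, Atic and Impdh2, lay below Serum without overlap, beside 21.3% of all tested genes. The count of calls was 0 without any 1 of the 3 Paused libraries or without Serum Oct4 GiP, and 1 without Serum E14, Serum v6.5 or the block. In those 4 fits with 0 called by limma, 3 to 5 of the 10 were lower at an unadjusted p under 0.05, and 12 to 38 of all 12711 genes were called.

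Between Paused and 2i cells the genes differed in both directions. In Paused against 2i, Gart and Impdh2 were higher, 2 of 10 where 19.8% of all tested genes were, and Umps was lower, 1 of 10 where 24.6% were. These shares are near those of all genes. The median of the 10 was 0.19, beside -0.03 over all tested genes. Ranges lay apart for Gart, Paics, Atic and Impdh2, higher in Paused, where 23.6% of all tested genes did so, and for Umps, lower in Paused, where 28.3% did. With each library centred on its median gene, or with quantile normalization, 5 were called higher, Gart, Impdh2, Paics, Atic and Dhodh, and Umps was not called. The 3 comparisons share their libraries in pairs, so their values for a gene are not independent of each other.

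The deposited table holds a second column per library, the FPKM multiplied by a constant that was on average 1.88 ± 0.10 in Paused, 2.80 ± 0.36 in 2i and 3.59 ± 0.17 in Serum libraries (SD, n = 3), and the sources used here do not give how the authors set it. On that scale the median of all tested genes moved to -0.88 in Paused against Serum, -0.33 in 2i against Serum and -0.56 in Paused against 2i. All 10 genes were then called lower in Paused against Serum, where 76.9% of all tested genes were, and their median was -1.18. In 2i against Serum 9 were called lower, all but Pfas, where 35.7% of all tested genes were, with a median of -0.68. In Paused against 2i 5 were called lower, where 54.5% of all tested genes were, with a median of -0.37. Gart shows the effect of the scale: it stood at 407 ± 23 in Paused, 420.2 ± 25.2 in 2i and 957 ± 37 in Serum cells in these columns, so that its difference between Paused and 2i was -0.05 ± 0.12 (adjusted p = 0.748), against 0.51 in FPKM. Umps was lower in Paused than in 2i cells on both scales, at 134 ± 6 against 238 ± 23 in the second columns.

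**Figure D3:**
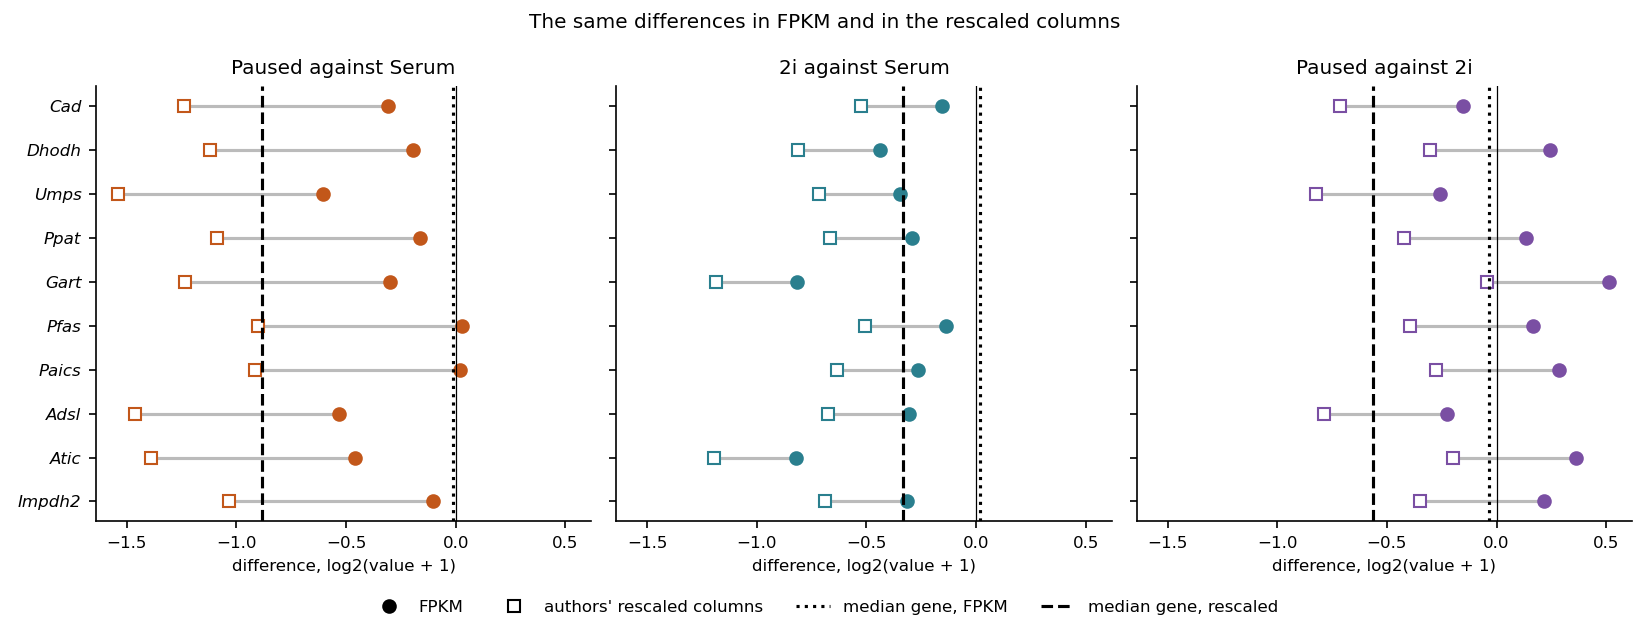
The same differences in FPKM (filled circles) and in the authors' second columns (open squares), on the log2(value + 1) scale, with the median of all tested genes dotted for FPKM and dashed for the second columns. All squares lie left of their circles, and in Paused against 2i the 7 genes above 0 in FPKM lie below 0 in the second columns.

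The 10 genes did not all vary together. Over the 45 pairs, Pearson correlations of log2(FPKM + 1) across the 9 libraries had a median of 0.37 and ran from -0.39 to 0.89, as a description of libraries that share lines and conditions. Gart correlated at 0.89 each with Impdh2, Atic and Ppat, while the 9 pairs with Pfas had a median of 0.11. The 36 pairs without Pfas had a median of 0.51 and ran from -0.04 to 0.89. Umps went most closely with Adsl, at 0.68. The tested genes most like the mean pattern of the 10 over the 9 libraries were Dapk3 (r = 0.98), Krt10 (0.98), Trappc4 (0.97), Ankrd37 (0.97) and Ipo4 (0.97). The most opposite were Pfkfb2 (-0.98), Irak1 (-0.96) and Tfcp2 (-0.96). All were picked as extremes among the tested genes over only 9 libraries, and no p was computed. Krt10 ran from 1.06 to 2.27 FPKM and Ankrd37 from 0.656 to 5.57 FPKM, so both were low. Dapk3, a kinase gene, stood at 50.4 ± 2.2 FPKM in Paused, 40.0 ± 2.9 FPKM in 2i and 74.3 ± 4.3 FPKM in Serum cells, the order of Gart and Atic.

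The rest of nucleotide metabolism was followed in 10 further lists of 97 genes, of which 84 stand on a single row of their own, passed the filter on low values and are counted here. Of the others, 7 fell below the filter, 5 share a joined row with another gene, and Tkt stands on more than 1 row. Beside the counts, 10.5% of all tested genes were called lower and 7.64% higher in Paused against Serum, 18.9% lower and 21.7% higher in 2i against Serum, and 24.6% lower and 19.8% higher in Paused against 2i. Prps1, which makes PRPP, fell to 48.7 ± 7.2 FPKM in 2i, against 85.5 ± 3.9 FPKM in Serum cells (-0.81 ± 0.09, adjusted p = 0.00172), the only call against Serum among the 4 genes of PRPP supply, and was higher in Paused than in 2i cells (0.60 ± 0.09, adjusted p = 0.00300). Among the other enzymes from IMP to AMP and GMP, 2 of 3 fell in 2i, Gmps and Adss. Gmps, which completes GMP after Impdh2, was at 68.4, 79.3 and 77.5 FPKM in Paused, 56.0, 37.4 and 38.1 FPKM in 2i, and 86.5, 104.6 and 96.6 FPKM in Serum cells. It fell in 2i (-1.13 ± 0.18, adjusted p = 0.00475), and Impdh1 fell in Paused cells (-0.82 ± 0.22, adjusted p = 0.0487), a call that held in 1 of 9 fits without 1 library. Of the 10 kinases and CTP synthases, 3 fell in Paused against Serum and 3 in 2i, with Guk1 and Nme4 in both and Ctps in 2i (-0.57 ± 0.11, adjusted p = 0.00813). The adenylate kinase gene Ak4 rose in 2i, at 99.0 ± 15.9 FPKM against 12.6 ± 8.4 FPKM in Serum cells (3.07 ± 0.43, adjusted p = 0.00346).

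Another list holds the enzymes that turn ribonucleotides into DNA precursors. Of its 9 genes 4 fell in Paused against Serum, Rrm2, Tk1, Dut and Tyms, and 5 of 9 were lower in Paused than in 2i. In 2i against Serum 2 rose, Tk1 and Rrm2b, and limma called 0 lower, as did an unadjusted p under 0.05. Tk1, the cytosolic thymidine kinase, was at 29.6 ± 5.9 FPKM in Paused, 108.6 ± 15.5 FPKM in 2i and 54.7 ± 10.1 FPKM in Serum cells, and each comparison was called. Of 10 breakdown genes, 2 fell in Paused (Samhd1 and Itpa) and 3 in 2i (Samhd1, Nt5c and Nt5c2).

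Salvage reuses bases and nucleosides, and 1 of its genes differed by line. Hprt, which salvages hypoxanthine and guanine, was at 0.322, 63.0 and 61.8 FPKM in Paused, 0.405, 84.1 and 65.5 FPKM in 2i, and 0.603, 127.8 and 103.6 FPKM in Serum cells, so that all E14 libraries lay below 1 FPKM. The line is known to include Hprt-deficient sublines, and the labels do not say which E14 was used. No member but Dhodh stood apart in E14. Of 11 salvage genes, 3 fell in Paused (Aprt, Ada and Hprt) and Tk2 rose, while 4 fell in 2i (Adk, Ada, Aprt and Hprt) and Tk2 rose. Without the line as a block, Hprt, Aprt and Tk2 were not called in either comparison, with adjusted p of 0.876 and 0.894 for Hprt, 0.0718 and 0.0618 for Aprt, and 0.171 and 0.0791 for Tk2, in Paused and 2i in turn. The rise of Tk2 holds in FPKM only. With the second columns limma called it lower in Paused against Serum (-0.42 ± 0.16, adjusted p = 0.0421). In 2i against Serum it was then not called (0.19 ± 0.16, adjusted p = 0.370). Hprt's call held in 3 of 9 fits without 1 library in each comparison. Adk, the adenosine kinase, stood at 53.4 ± 14.5 FPKM in Paused, 13.0 ± 1.5 FPKM in 2i and 66.8 ± 23.4 FPKM in Serum cells, and fell in 2i (-2.21 ± 0.24, adjusted p = 0.00177).

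The next lists hold the genes that feed carbon and nitrogen to the pathway. Of 17 genes of folate-bound carbon and glycine supply, 6 rose and 3 fell in 2i against Serum, 8 fell in Paused against Serum, and 11 were lower and 1 higher in Paused than in 2i. The 3 of 17 lower in 2i are near the share of all genes, and the 8 lower in Paused were 2 without the block. Mthfd2, a mitochondrial folate enzyme, was at 26.1, 20.4 and 27.5 FPKM in Paused, 168.8, 78.5 and 84.6 FPKM in 2i, and 53.0, 68.5 and 69.1 FPKM in Serum cells, and fell in Paused against Serum (-1.33 ± 0.28, adjusted p = 0.0276). Psph, of serine synthesis, fell in Paused (-1.21 ± 0.18, adjusted p = 0.0140) and rose in 2i (0.96 ± 0.18, adjusted p = 0.00815). Aldh1l1, a folate dehydrogenase, rose in 2i (2.30 ± 0.23, adjusted p = 0.00162). Of 6 genes of the pentose phosphate pathway, with Tkt not counted, 2 fell in Paused (Taldo1 and Pgd) and 2 rose in 2i (Pgd and Rpe). Of 8 genes of glutamine and aspartate supply, 3 rose in 2i (Asns, Slc1a5 and Slc25a13) and 2 fell (Glul and Slc25a12), and Slc1a5 fell in Paused. Asns, asparagine synthetase, was at 82.3 ± 18.2 FPKM in Paused, 508 ± 142 FPKM in 2i and 115 ± 50 FPKM in Serum cells.

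**Figure D4:**
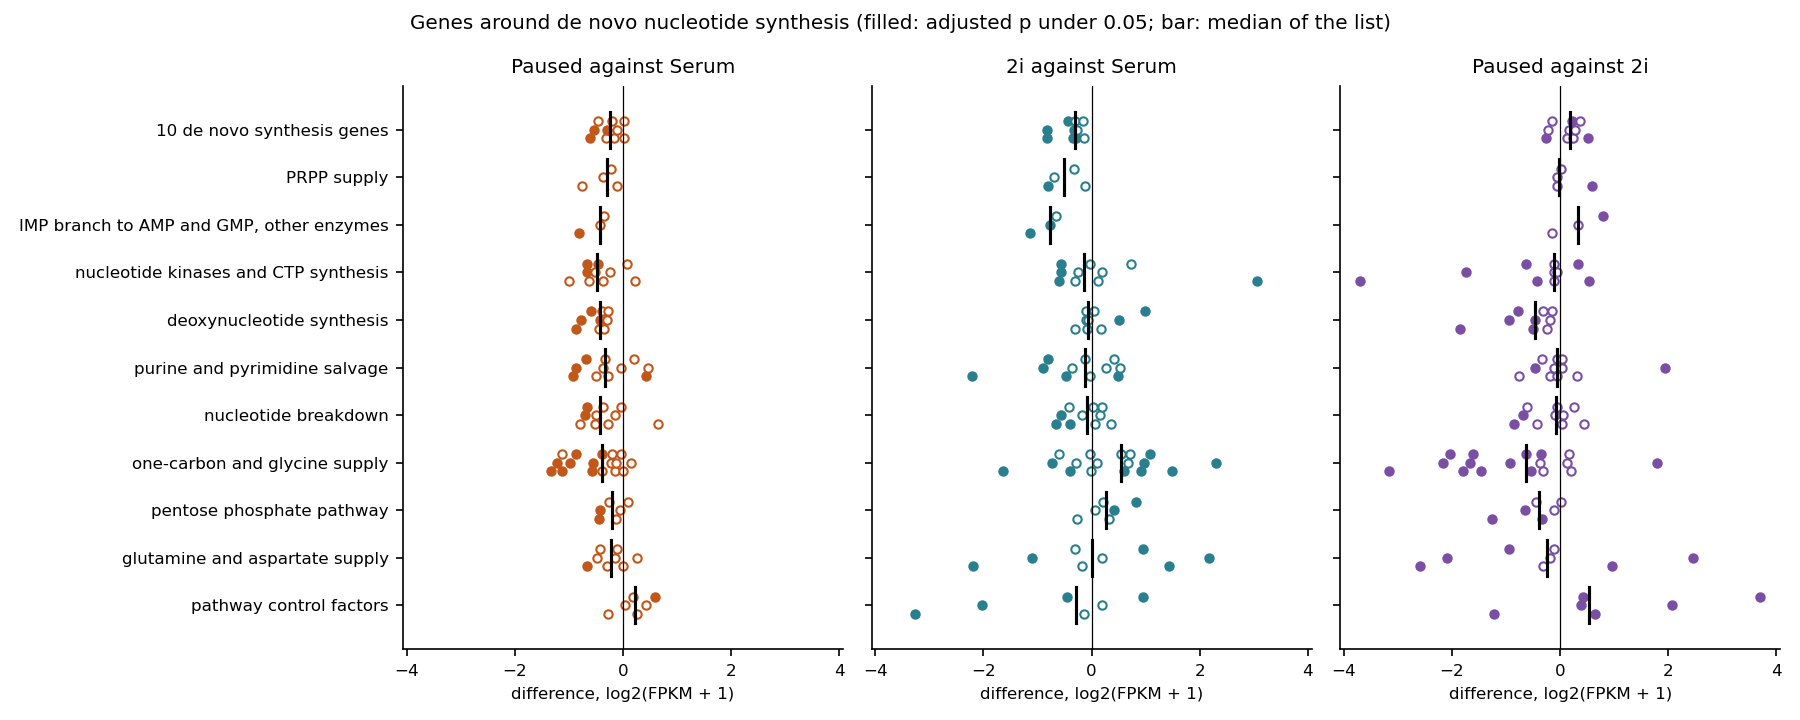
Differences on the log2(FPKM + 1) scale (horizontal axes) for the 10 synthesis genes (top row) and the tested genes of 10 further lists, one circle per gene, filled where called, with a bar at each list's median. The synthesis genes span -0.82 to 0.51 over the 3 comparisons, and the folate-bound carbon and glycine list has a median of -0.38 in Paused and 0.55 in 2i against Serum.

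Of the 6 control factors, 3 fell and 1 rose in 2i against Serum. Myc was at 66.5, 99.2 and 84.0 FPKM in Paused, 3.80, 5.40 and 7.51 FPKM in 2i, and 55.2, 63.3 and 64.6 FPKM in Serum cells. It fell in 2i (-3.27 ± 0.15, adjusted p = 0.000564), as did Mycn (-2.03 ± 0.19, adjusted p = 0.00135), whereas in Paused cells neither was called against Serum in FPKM. With the second columns, 5 of the 6 factors were called lower and 0 higher in Paused against Serum. There, 76.9% of all tested genes were called lower. In FPKM, Atf4 rose in 2i (0.96 ± 0.11, adjusted p = 0.00208), Rps6kb1, which encodes S6 kinase, fell in 2i (-0.46 ± 0.08, adjusted p = 0.00820), and Mtor rose in Paused (0.60 ± 0.09, adjusted p = 0.0139). The part of these factors in the levels of the 10 genes was not tested. Over all 84 genes, the Paused calls against Serum, 24 lower and 2 higher, were 0 without any 1 of the 3 Paused libraries or without Serum Oct4 GiP, where 31 to 33 were lower at an unadjusted p under 0.05 by the same limma fit. Without the block they were 13 lower and 1 higher, and Impdh1, Tyms and Slc1a5 were then not called (adjusted p = 0.0755, 0.0589 and 0.0987). The 2i calls against Serum, 21 lower and 16 higher, stayed at 29 to 43 in all without 1 library. They were 37 without all E14, 28 without all v6.5 and 17 without all Oct4 GiP libraries. The 2i calls of Nt5c and Rpe each held in 4 of 9 fits without 1 library. Without the block, limma did not call Nt5c or Slc25a12 in 2i (adjusted p = 0.0842 and 0.0744). All these list calls are in FPKM and depend on the scale. With the second columns, 78 of the 84 were called lower and 0 higher in Paused against Serum, where 9779 and 48 of all 12711 genes were. For 2i against Serum the counts were 33 lower and 11 higher, where 4538 and 1240 of all 12711 were. For Paused against 2i they were 60 lower and 5 higher, where 6922 and 789 of all 12711 were.

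**Figure D5:**
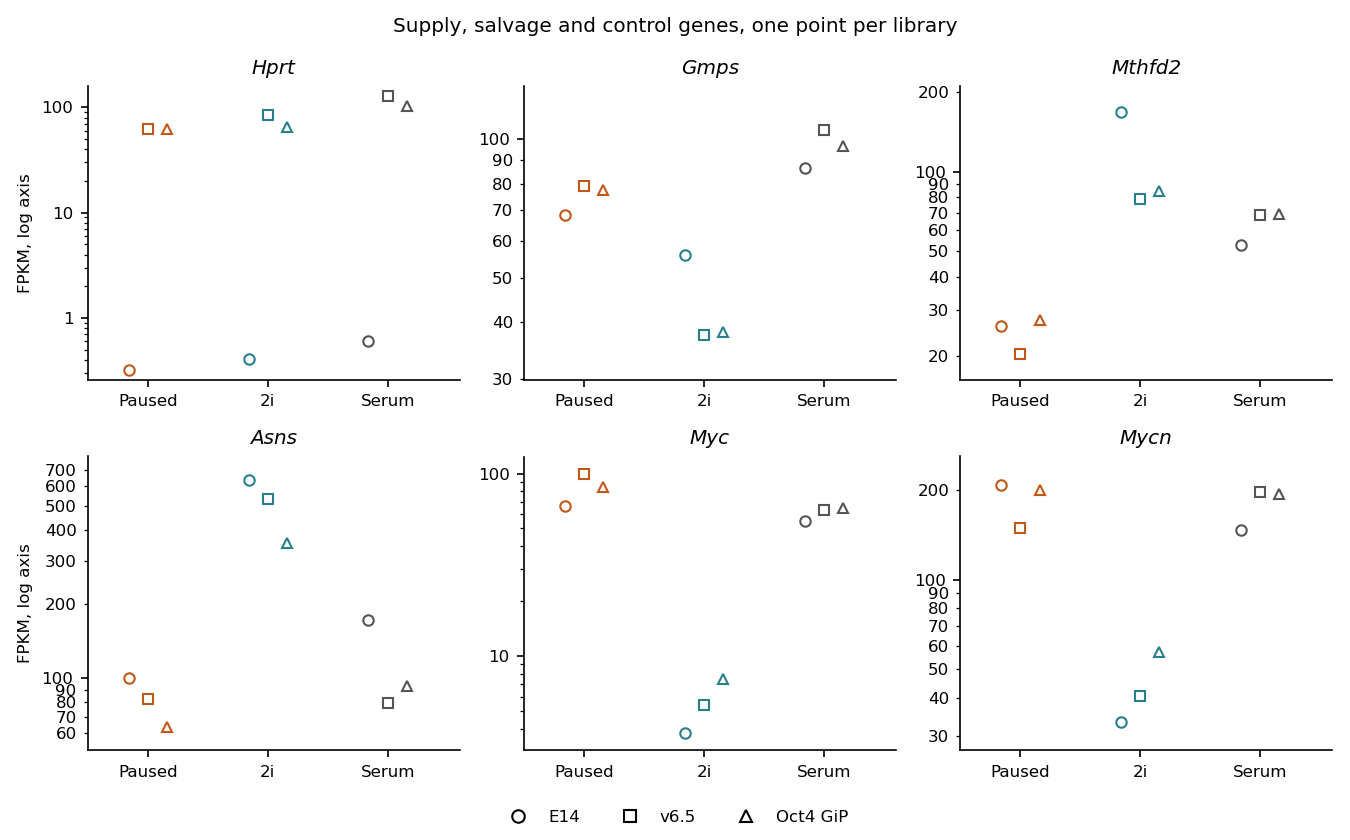
FPKM (vertical axes, logarithmic) of Hprt, Gmps, Mthfd2, Asns, Myc and Mycn in each of the 9 libraries, with the symbol giving the line. Hprt lies below 1 FPKM in the 3 E14 libraries, Gmps, Myc and Mycn are lowest in 2i, and Mthfd2 and Asns are highest in 2i.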

How the data were processed

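RNA-seq values of 9 mouse ES cell libraries (3 lines in each of 3 conditions) come from 1 deposited table with 18 value columns. Of the 2 columns of a library, the first is FPKM made by the authors with Cuffnorm on mm10, per the submitters' processing notes, with no version given. The second column holds the same FPKM times 1 constant per library, an expression signal that the authors deposited as normalized. The sources used here do not give the aligner, annotation, Cuffnorm scaling or strand-aware counting. The library kit was directional, from 250 ng of total RNA with ERCC spike-in, per the labels' protocols. RNA was extracted from 100000 cells for each of the 9 libraries. No read counts are held, so depth is unknown, and summed FPKM per library ran from 1451980 to 2133970. Within each line that sum was highest in Serum and lowest in Paused.

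Rows without a gene name (5644 of 29801, 18.9%) and 113 identical repeats were left out. Genes that reached FPKM of 1 in at least 3 libraries were tested with limma-trend (limma 3.58.1, R 4.3.3) on log2(FPKM + 1), which understates changes of low genes, with all 9 libraries in 1 fit, the cell line as a block and Benjamini-Hochberg adjustment over all 12711 tested genes. The line pairs the libraries by their labels; deviations from condition means gave correlations of -0.00080 to 0.40 for pairs within a line and -0.24 to 0.09 for pairs across lines. There were 23 alternatives per result. Positions and promoters are from RefSeq, and strands and overlaps between genes from GENCODE M21, on GRCm38.p6, the assembly behind mm10.

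The members and the further lists were chosen with earlier results of these data known. All 10 members are named, with up to 3 called genes per direction, list and comparison with the largest change, a panel of further genes, and the 5 genes most like and 3 least like the mean member pattern. Counts leave out joined rows such as Nme1 with Nme2 and Pnp with Pnp2. Tables were read with Python 3.11.15 and pandas 2.3.3.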

Additional observations from a re-analysis of the deposited data

Results flagged for a closer look

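For 5 of the genes, the lines differed in the direction of a condition difference, which rests on 1 library per line and condition and was not tested. All values are differences of log2(FPKM + 1) within a line. Cad was at 0.078 in Oct4 GiP and -0.64 in v6.5 in Paused against Serum, and at 0.13 and -0.35 in the same lines in Paused against 2i. Dhodh was at 0.0061 in Oct4 GiP and -0.46 in v6.5 in Paused against Serum, and at 0.48 and -0.030 in Paused against 2i. Paics was at 0.13 in Oct4 GiP and -0.12 in v6.5 in Paused against Serum. Adsl was at 0.015 in E14 and -0.55 in Oct4 GiP in 2i against Serum, and at -0.44 in E14 and 0.058 in Oct4 GiP in Paused against 2i.

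Pfas had the widest differences between lines of the 10 genes in all 3 comparisons. It was at 0.49 in E14 and -0.86 in Oct4 GiP in Paused against Serum, at 0.95 in v6.5 and -0.76 in E14 in 2i against Serum, and at 1.26 in E14 and -0.50 in v6.5 in Paused against 2i.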

How the results depend on the processing

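Of 690 values of single genes under an alternative, 533 kept direction and side of the threshold, 28 became called, 105 lost a call and 24 changed sign. The number of genes called in Paused against Serum was 3, and it was 1 with no replicate block, 10 in the authors' second columns and 0 to 3 when libraries or lines were left out. In 2i against Serum it was 6, with 3 in a fit of only the 6 libraries compared and 1 to 6 when libraries or lines were left out. In Paused against 2i it was 3, with 5 relative to the median gene, 5 with quantile normalization, 5 (all lower) in the authors' second columns, 1 without limma's trend, 1 in a fit of only 6 libraries and 0 to 3 with libraries or lines left out. The pairing by line changed no other count of the 10 genes by over 1.5 times.

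In the second columns Pfas (-0.90) and Paics (-0.91) were below 0 in Paused against Serum, as were Dhodh (-0.31), Ppat (-0.42), Gart (-0.046), Pfas (-0.40), Paics (-0.28), Atic (-0.20) and Impdh2 (-0.35) in Paused against 2i, where all genes shift. In Paused against Serum, Paics was at -0.0067 relative to the median gene and Impdh2 at 0.10 with quantile normalization, and the cause was not tested. With 1 library left out, Pfas ran from -0.36 to 0.36 in Paused against Serum, from -0.57 to 0.29 in 2i against Serum and from -0.27 to 0.60 in Paused against 2i, and Paics from -0.062 to 0.12 in Paused against Serum. Without all E14 libraries, Pfas was at -0.20, 0.18 and -0.38 in these 3 comparisons. Without all v6.5 libraries it was at -0.18 in Paused against Serum, and without all Oct4 GiP libraries at 0.093 in 2i against Serum, and Paics then at -0.040 in Paused against Serum. Depth in reads is unknown, so counting error could not be separated from the spread between lines.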
